A study of Mus musculus with 12 samples.

Results

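Non-cycling antibody-secreting cells whose heavy chain was IgM were described here, 4039 of the 39949 barcodes that the filtered gene expression lists of the series held. Members were chosen by measured values. A barcode was kept when it held at least 1000 unique molecular identifiers (UMIs, counts of single RNA molecules) outside immunoglobulin genes and under 10% mitochondrial UMIs. Its leading light-chain V gene had to hold at least 50% of all its light-chain V gene UMIs, and it had to hold 0 UMIs of 6 genes of the cell cycle (Mki67, Top2a, Cdk1, Birc5, Ube2c and Ccnb2). This left 4965 kept cells, and those with Ighm at 80% or more of the UMIs of 8 heavy-chain constant genes were the members. The other 926 kept cells comprised 183 IgA cells, 242 IgG cells (each with at least 80% of that class) and cells of mixed or other class. The mixed or other cells were the largest of these groups, and in female spleen they were 304 of the 500 other kept cells.

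The cells came from female and male Prdm1-eYFP mice on a C57BL/6 background, 3 months old, in which a yellow fluorescent protein reports Prdm1, the gene of the transcription factor Blimp-1. Bone marrow, spleen and thymus of each sex were pooled over 3 mice and sorted for high CD138 and the reporter, without IgD and the T cell antigen CD90.2 and with any level of B220. Each sex and tissue gave 1 droplet 5′ gene expression library and 1 B cell receptor (VDJ) library, 6 of each. A tissue therefore had 2 libraries, 1 female and 1 male, and these pools are the replicates of every test.

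IgM is the first antibody class that a B cell makes. Secreted IgM is built as a pentamer closed by the J chain, or as a hexamer, and part of it is natural antibody made without immunization, much of it by B-1 cells. Plasma cells of bone marrow and spleen secrete IgM into the blood, while IgA cells carry the homing receptors of mucosal tissue, and the thymus holds a small resident set of antibody-secreting cells.

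IgM cells were the largest class of kept cells in all 6 libraries. For bone marrow they numbered 664 of 810 in the female library (82.0%, with a 95% binomial interval, exact, of 79.2 to 84.6%) and 987 of 1064 in the male one (92.8%, 91.0 to 94.2%). Female spleen held 1295 of 1795 (72.1%, 70.01 to 74.2%). Male spleen held 891 of 1020 (87.4%, 85.2 to 89.3%), female thymus 44 of 67 (65.7%, 53.1 to 76.8%) and male thymus 158 of 209 (75.6%, 69.2 to 81.3%). The male share was above the female share in each tissue, and with 2 libraries a tissue no difference between tissues could reach significance by permutation. Between 0 and 6 cells a library lay just under the threshold, with Ighm at 70 to 80%, and between 1 and 78 just above it, at 80 to 90%.

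The 4 genes given to mark these cells were Ighm, which the rule used, Jchain, Xbp1 and Sdc1. Jchain, the joining chain gene, had a UMI in 100% of the IgM cells of every library, and Xbp1, the transcription factor gene of the secretory program, in 90.9% to 99.7%. Sdc1, which encodes the sorted antigen CD138, had a UMI in 40.9% of the cells of female thymus and in 63.3% to 83.1% of those of the other libraries. Free RNA, the summed profile of barcodes outside every filtered list, held these genes too: Jchain was at 52766 to 118211 CPM (counts scaled to a library total of 1e+06 UMIs outside immunoglobulin genes) in IgM cells and 53334 to 89178 in free RNA, below the IgM level in bone marrow and spleen and above it in both thymus libraries. Macrophage droplets of spleen, 44 and 25 barcodes, had a Jchain UMI in 100% and an Xbp1 UMI in 93.2% and 88%, so a share of cells with a UMI of these genes does not separate the types. Summed levels in these droplets were lower, with Jchain at 30365 and 20871 CPM. The B cell regulator Pax5 had a UMI in at most 0.449% of the cells of any library, and the 12 B cell markers together took 307 to 417 CPM, against 146 to 413 CPM in free RNA. The summed UMIs that entered the fits were 98438 for female thymus, 521332 for male thymus and 2670447 to 6152544 for the other libraries, so female thymus carried the least depth. Ribosomal protein genes took under 10% of these UMIs in 51.1% to 90.9% of the IgM cells, and the median estimated share of free RNA was 3.79% to 19.96% a library. Libraries also shared barcodes: 239 IgM cells (5.92%) carried a barcode that another library's filtered list held too, 13 of 44 in female thymus and 30 of 158 in male thymus.

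The VDJ libraries matched the gene expression libraries of the opposite sex label. The VDJ library labelled female bone marrow shared 1718 of its 1778 barcodes with the expression library labelled male bone marrow and 38 with the one labelled female bone marrow. The same crossing held in spleen (2794 of 2893, against 64) and thymus (706 of 917, against 18), and in the 3 VDJ libraries labelled male. Cells were therefore joined by barcode, and the sexes below are those of the expression labels. Which of the 2 kinds of label is right was not tested. A single heavy chain was found for 2286 IgM cells. Its constant gene was IGHM in 2172 of the 2180 IgM cells where one was assigned (99.6%), against 18 of 647 of the other kept cells (2.78%), which mostly held IGHA (237), IGHG2B (190) or IGHG2C (118).

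Heavy-chain rearrangements that recurred in both sexes were commoner in IgM cells than in the other kept cells in each library. The first 5 lines below give such rearrangements, and the last gives the largest IgM clone; they are shown because the repertoire results below turn on them. Each is the heavy-chain CDR3 from the deposited VDJ tables, read 5′ to 3′, and capitals mark the bases that match neither the germline V nor the germline J segment of GENCODE M21, that is, D segment and added bases.
IGHV1-80 with IGHJ3: tgtgcaagaGGGgcttactgg
IGHV1-26 with IGHJ1: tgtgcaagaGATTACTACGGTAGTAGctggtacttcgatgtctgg
IGHV11-2 with IGHJ1: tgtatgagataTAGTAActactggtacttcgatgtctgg
IGHV11-2 with IGHJ1, second form: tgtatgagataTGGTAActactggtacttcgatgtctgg
IGHV1-55 with IGHJ1: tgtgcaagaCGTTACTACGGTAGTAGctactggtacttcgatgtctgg
IGHV9-3 with IGHJ2, largest clone: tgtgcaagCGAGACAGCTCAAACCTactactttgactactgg

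The IGHV1-80 form was carried by 28 IgM cells, 13 female and 15 male, in 5 of the 6 libraries, with only 3 bases between V and J. The light chain was IGKV4-55 in 18 of the 19 of these with a light chain. The V gene held no mismatch in 28.6% of these IgM cells, and 5 other kept cells carried the form too. The IGHV1-26 form was carried by 24 cells, 4 female and 20 male, and the capitals hold 17 bases. Its V gene held no mismatch in 37.5% of these cells. Its leading light chain, IGKV6-23, was found in 9 of 17, and 1 other kept cell carried the form. The IGHV11-2 forms had 6 such bases and were carried by 21 and 12 IgM cells, and a form with 9 bases by 11 more. Their light chain was IGKV14-126 in 20 of 21, 12 of 12 and 11 of 11 cells, their V gene held no mismatch in 100% of cells, and none of the other kept cells carried them. IGHV11-2 with IGKV14-126 is a textbook pairing of B-1 cells whose antibodies bind phosphatidylcholine. A second such pairing, IGHV12-3 with IGKV4-91, was found in 1 IgM cell among the rearrangements present in both sexes.

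In all, 19 heavy-chain rearrangements, the same V gene, J gene and CDR3 bases, occurred in the VDJ cells of both sexes and covered 150 IgM cells. Of the IgM cells with a heavy chain these were 12.04% (female) and 8.58% (male) for bone marrow, 3.83% and 2.49% for spleen, and 7.14% and 3.42% for thymus. Other kept cells had 0%, 2.94%, 1.07%, 0.926%, 0% and 2.13% in the same order. IgM was higher in 6 of 6 libraries, with means of 6.25% ± 3.68 and 1.18% ± 1.17 (SD, n = 6). The exact sign-flip test over libraries gave a two-sided p of 0.03125, the smallest that 6 libraries allow, and 0.0833 after Benjamini-Hochberg adjustment over the 8 repertoire measures, which does not pass 0.05. With 1 cell per clone the mean gap was 2.75 points in place of 5.07, with IgM higher in 6 of 6 libraries. A match counted only on a different barcode. A single heavy chain was found for 2286 IgM cells and 653 other kept cells, so IgM cells had more cells of their own class to match. This imbalance was not corrected for, and it also enters the shares of clones in another tissue and of clones of 2 or more cells. Matches join libraries to each other, so the 6 libraries are not independent in this measure.

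In every library the V segments of IgM cells held fewer mismatches to the germline on average. Mismatches are ungapped base differences from the GENCODE segment of the called V gene. They include somatic mutation, the base changes a B cell gathers mostly in germinal centres. How many of them are somatic mutation was not tested. The share of cells with no mismatch to the GENCODE V segment was 54.0% (female) and 44.6% (male) for bone marrow, 62.7% and 70.03% for spleen, and 69.0% and 63.7% for thymus. The other kept cells had 32.3%, 30.9%, 49.6%, 50.9%, 47.8% and 55.3%. Every library put IgM higher, with means of 60.7% ± 9.73 against 44.5% ± 10.3 (SD, n = 6; exact sign-flip p = 0.03125, adjusted 0.0833). Both bone marrow libraries were the lowest of the 6 among IgM cells. By VDJ constant gene, with libraries pooled, 59.3% of IGHM cells had no mismatch. The share was 42.7% for IGHA, 46.6% for IGHG2B, 47.1% for IGHG2C and 34.9% for IGHG3. IGHG1 went the other way with 66.7%, over 21 cells. IgM cells held 1.48 ± 0.456 mismatches a V segment and the other kept cells 3.07 ± 1.14, lower for IgM in 6 of 6 libraries. The exact and adjusted p were the same as for the share with no mismatch, so neither measure passed after adjustment. These 2 measures and the share of rearrangements found in both sexes were added after the data had been seen.

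**Figure D1:**
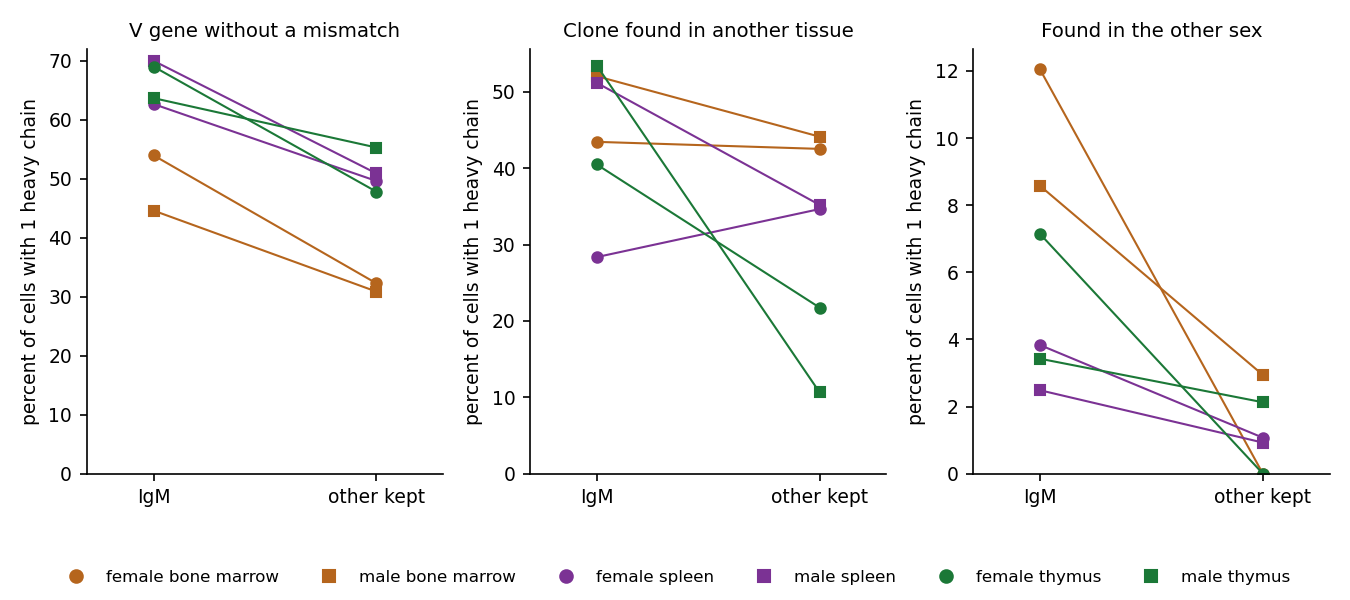
Share of cells with 1 heavy chain (percent) whose V gene had no mismatch (left), whose clone was found in another tissue of the same sex (middle) or in the other sex (right). Lines join the IgM cells and the other kept cells of 1 library; IgM is higher in 6, 5 and 6 of 6 libraries.

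Clones were also compared between tissues. A clone here is the same V gene, J gene and CDR3 bases, without regard to the light chain. Each library pooled 3 mice, so a match between tissues can join cells of different mice, and this was not tested. A clone found in another tissue of the same sex covered 43.4% (female) and 52.0% (male) of IgM cells for bone marrow, 28.4% and 51.2% for spleen, and 40.5% and 53.4% for thymus. The other kept cells had 42.5%, 44.1%, 34.6%, 35.2%, 21.7% and 10.6%. The widest gaps were in thymus, and female spleen went the other way. In male spleen 220 of the 350 such IgM cells belonged to the IGHV9-3 clone, which had 2 IgM cells in bone marrow, and without it the share was 130 of 464 cells (28.0%). The means, 44.8% against 31.5%, differed without passing the exact sign-flip test (p = 0.09375, adjusted 0.1875, IgM higher in 5 of 6 libraries). With 1 cell per clone IgM was higher in 3 of 6 libraries and the mean gap was 5.80 points, or -0.36 points without male thymus. Of the 112 IgM clones of male thymus, 32 were also among the IgM clones of male bone marrow (28.6%) and 22 among those of male spleen (19.6%). In the female, 8 of 35 thymic clones were in bone marrow (22.9%) and 3 in spleen (8.57%).

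None of the repertoire measures tested above passed after adjustment, and neither did the remaining features of the receptor. The CDR3 averaged 41.3 bases in IgM and 43.0 in the other kept cells (exact p = 0.1875, adjusted 0.292). The IGHV1 family took 54.8% and 61.3% (exact p = 0.21875, adjusted 0.292). Clones of 2 or more cells covered 68.9% and 62.1% (exact p = 0.34375, adjusted 0.393), and lambda light chains 7.02% and 7.04% (exact p = 1, adjusted 1).

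The V genes used most by IgM cells, with each library weighted equally, were IGHV9-3 (7.18%), IGHV1-55 (6.11%), IGHV8-8 (5.14%), IGHV1-80 (4.44%) and IGHV1-26 (4.402%). All lie on the minus strand of chromosome 12 in the heavy-chain locus (GRCm38, GENCODE M21), IGHV1-55 at 115208095 to 115208591 and IGHV8-8 at 115294062 to 115294504. IGHV1-55 and IGHV8-8 were above the other kept cells in 6 of 6 libraries, with means there of 1.52% and 1.39%. IGHV1-55 reached 9.52% and 11.6% of the IgM cells in female and male thymus, against 3.07% to 5.23% in the other 4 libraries. IGHV11-2 was found in no other kept cell with a heavy chain, and in 57 IgM cells, of which it made 6.67% in female bone marrow and 0% in male thymus. The rank of IGHV9-3 rested on male spleen (34.9%), and without that library its mean was 1.62%, against 6.54% for IGHV1-55. These genes were picked from 80 for their use in IgM cells, so no test is given.

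Among IgM cells with a heavy chain, the IGHV9-3 clone was the largest and lay almost wholly in male spleen. It covered 222 IgM cells, 2 in male bone marrow and 220 in male spleen, where it was 32.2% of the IgM cells with a heavy chain. The largest IgM clone of the other libraries held 2.74% to 6.90%. The light chain of the IGHV9-3 clone was IGKV5-39 in 218 of 221 cells, 95.9% of its V segments had no mismatch, and no VDJ cell of the opposite sex carried it. A single heavy chain was found for 261 of the 1295 IgM cells of female spleen and 684 of the 891 of male spleen. Clones of female spleen were thus covered less. The next largest clones used IGHV1-66 (37 cells), IGHV1-18 (28), IGHV8-8 (27) and IGHV1-55 (22).

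In the expression data Igkv5-39 was the leading light chain of 112 IgM cells in female spleen and 34 in female bone marrow. It led 12 in male bone marrow and 4 in male thymus. In male spleen it led 295 of the 891 IgM cells (33.1%), and of the 241 of these with a heavy chain, 216 (89.6%) were the clone. The 295 cells were set against the rest of male spleen as a description of 1 library, with exact 95% Poisson intervals that cover counting error only and no test. Ifitm3, an interferon-induced antiviral membrane gene, was at 143 CPM in them (122 to 165) and 29.4 in the rest (22.2 to 38.2). Ifi27l2a, another interferon-induced gene, was lower in them (101 against 301 CPM), as was Ly6c2 (278 against 613). Mt1, a metal-binding metallothionein gene, was at 302 and 108 CPM, and the cell cycle inhibitor gene Cdkn2a at 30.5 and 7.88. Lower were Ggh, a folate-processing enzyme gene, at 14.8 CPM (8.79 to 23.4) against 86.2 (73.5 to 100.4), Wls, a Wnt secretion gene, at 4.94 against 36.8, and the early B cell factor gene Ebf1 at 10.7 against 49.4. Among secretory genes Sdc1 was at 433 and 434 CPM, Prdm1 at 843 and 903, Xbp1 at 4134 and 3583 and Jchain at 86328 and 68073, the last 2 with intervals that did not overlap. Before the cell cycle filter, 43.3% of the cells led by Igkv5-39 and 45.5% of the rest held a UMI of the 6 cycle genes. Apart from Sdc1, Prdm1, Xbp1 and Jchain, these genes were chosen after their values were seen.

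**Figure D2:**
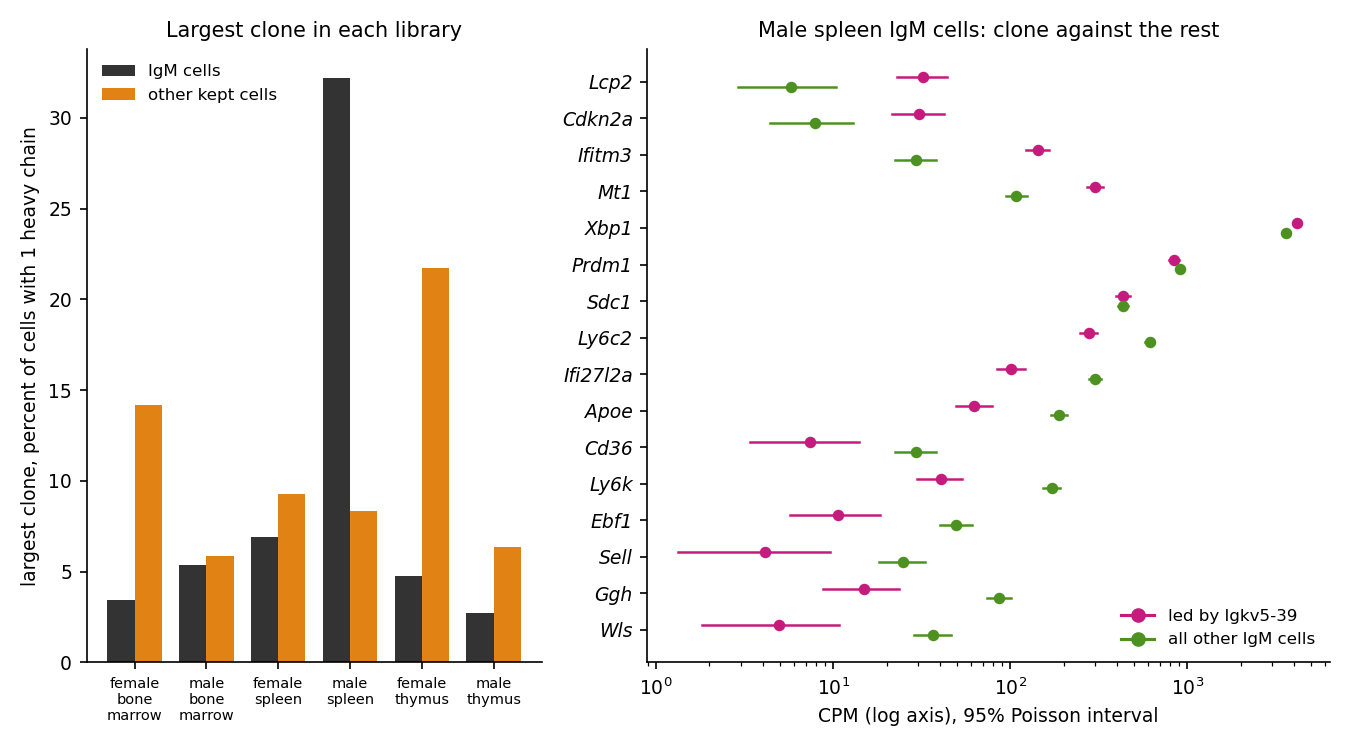
Left, largest clone of each library as percent of the cells with 1 heavy chain, for IgM and other kept cells; male spleen stands out at 32.2%. Right, CPM on a log axis with exact 95% Poisson intervals in male spleen IgM cells led by Igkv5-39 and in the remaining IgM cells of that library, for genes higher, equal or lower in the clone.

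IgM cells differed from the other kept cells in 774 of 7418 genes tested (10.4%), 412 higher (5.55%) and 362 lower (4.88%). The test was edgeR's quasi-likelihood F-test on UMIs summed per library and class, with the library as a block and Benjamini-Hochberg adjustment at 0.05 over all genes. Immunoglobulin, mitochondrial and cell cycle genes of the rule were left out. Values below are CPM after TMM scaling, fold changes are IgM over other with the standard error (SE), and the median of all genes was -0.01 on the log2 scale. The other class pools IgA, IgG and mixed cells, so values against IgA cells alone (3 libraries with enough cells) and IgG cells alone (4 libraries) are given for several genes. Against IgA alone 248 of 9036 genes were called (2.74%), 1.73% higher and 1.02% lower, and against IgG alone 645 of 7414 (8.7%), 4.05% higher and 4.65% lower. These comparisons share the IgM cells, and the libraries that enter differ. The cells of mixed or other class enter only the pooled comparison.

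Among the named genes higher in IgM, Cox6a2, a muscle-type subunit of cytochrome c oxidase, had the largest change. It was at 65.1 (female) and 41.1 CPM (male) in IgM cells from bone marrow, 56.7 and 46.0 in spleen, with 9.16 and 77.5 in thymus. Other cells held 4.27, 3.09, 4.10, 8.37, 0 and 0. The classes did not overlap, but the female thymus value of IgM was 1 UMI, so there the separation rests on a single molecule. The log2 fold change was 3.65 ± 0.26 (12.5-fold, adjusted p = 2.18e-13). Cox6a2 is also a marker of plasmacytoid dendritic cells, and of the other 5 markers of those cells on the list, in IgM cells, Cd209d was at 0 in all 6 libraries, Siglech in 5, Klk1 in 4, Ccr9 in 2 and Pacsin1 in 1. The 6 markers summed to 9.72 to 90.9 CPM in IgM cells and 34.4 to 48.2 CPM in free RNA, and their part in the result was not tested.

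Lag3, an inhibitory receptor that binds MHC class II, was at 150 and 147 CPM in IgM cells of bone marrow, 130 and 121 in spleen, with 91.6 and 215 in thymus. Other cells were at 14.8 to 30.9 CPM, all below the lowest IgM library. The log2 fold change was 2.55 ± 0.15 (5.84-fold, adjusted p = 9.72e-16), and it was 3.36 against IgA and 2.89 against IgG alone. Btla, another inhibitory receptor, rose 3.22-fold, with 67.3 to 137 CPM in IgM and 0 to 40.2 in other cells. Blk, a Src-family kinase of B cells, rose 3.02-fold, with 56.5 to 111 CPM against 20.9 to 36.3. Both were separated in all libraries. The survival gene Bcl2 rose 2.63-fold (log2 1.40 ± 0.13, adjusted p = 2.09e-10), from 44.4 to 113 CPM in other cells to 91.6 to 229 in IgM cells, where the ranges overlapped but each library put IgM higher. Against IgA alone Bcl2 differed by 0.84 and against IgG alone by 2.22 on the log2 scale.

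The remaining named genes higher in IgM were Hspb1 (a small heat shock protein, 6.94-fold), Ggh (4.41-fold), Cpq (a secreted carboxypeptidase, 4.33-fold), Clec2i (a lectin-like ligand, 3.88-fold), Rap1gap2 (a GTPase activator for Rap1, 3.88-fold), Nrp2 (a neuropilin receptor, 3.78-fold), Itgav (the integrin alpha V chain, 3.50-fold) and Wls (3.46-fold). Each was higher in IgM in 6 of 6 libraries. Igkv5-39 cells of male spleen held less Ggh and Wls than the rest of that library, as given above, and 2 UMIs of Hspb1 (1.65 CPM, 0.2 to 5.95) against 47 (24.7 CPM, 18.2 to 32.8).

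Among the genes lower in IgM were the homing receptor genes Ccr9, Ccr10 and Itgb7, and the largest decrease among the named genes was that of Runx2. Runx2, a Runt-family transcription factor, was at 3.36 and 2.13 CPM in IgM cells of bone marrow, 1.99 and 3.68 in spleen, with 0 and 5.41 in thymus. The other kept cells held 57.7, 71.1, 24.1, 25.1, 44.4 and 20.7, with no overlap, and the log2 fold change was -3.81 ± 0.32 (adjusted p = 1.31e-11). Ccr9, the receptor for the gut and thymus chemokine CCL25, was at 0 to 4.97 CPM in IgM and 18.8 to 118 in other cells (log2 -3.42 ± 0.33). Ccr10, the receptor for the epithelial chemokine CCL28, was at 0 to 23.9 against 41.5 to 256 CPM (log2 -2.88 ± 0.16, adjusted p = 2.49e-16). Itgb7, the integrin chain that pairs with alpha 4 for gut homing, was at 32.5 to 82.5 against 125 to 316 CPM (log2 -2.14 ± 0.12, adjusted p = 2.49e-16).

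Values against each class alone differed. Against IgA cells alone Ccr10 differed by -4.14 and Itgb7 by -2.45 on the log2 scale, and against IgG alone by -0.33 (adjusted p = 0.771) and -1.11 (adjusted p = 0.000433). Runx2 and Ccr9 differed by -5.25 and -4.73 against IgA and did not pass the filter on low counts against IgG. Cxcr3, the receptor for interferon-induced chemokines, showed the other pattern: log2 -2.06 ± 0.15 against all other kept cells, -2.66 against IgG alone (adjusted p = 4.33e-14) and 0.65 against IgA alone (adjusted p = 0.527). Siglecg, an inhibitory sialic acid receptor, was -1.62, -1.61 and 0.07 in the same order. The remaining named genes that were lower were Fscn1 (an actin-bundling protein), Fgd2 (a Cdc42 exchange factor), Pik3r5 (a subunit of PI3-kinase gamma), Atp1b1 (a sodium pump subunit), Filip1 (a filamin-binding protein), Slc16a5 (a monocarboxylate transporter) and Tbxa2r (the thromboxane receptor), from 4.43-fold to 2.85-fold lower and each lower in 6 of 6 libraries. Atp1b1 was 3.21 lower against IgA and 0.61 higher against IgG on the log2 scale.

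**Figure D3:**
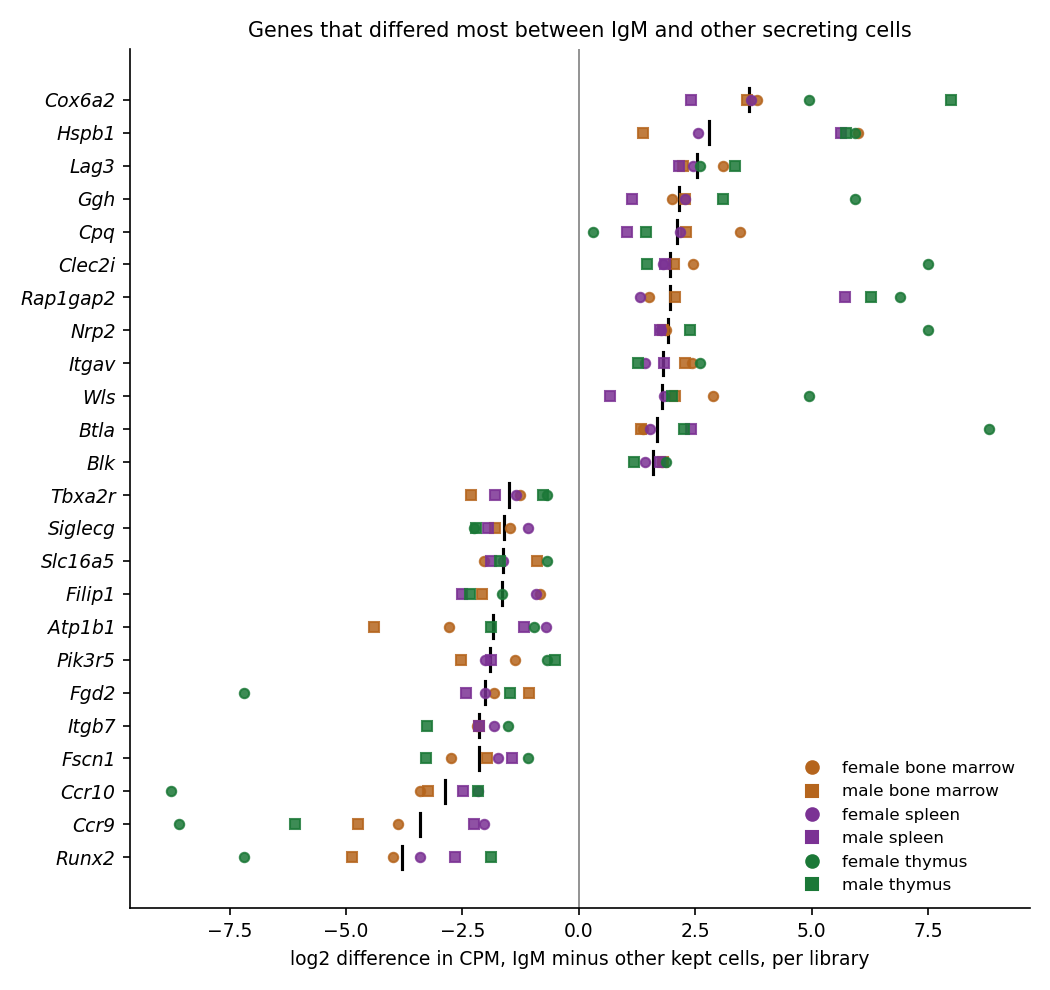
Log2 difference in CPM between IgM and other kept cells (IgM minus other) for 12 genes in each direction. These had the largest called change among genes with at least 20 CPM that changed the same way in every library. Each symbol is 1 library and the black bar the fitted log2 fold change; where a class held 0 UMIs a prior count of 0.5 sets the point.

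Gene groups were then counted, to be read against the 5.55% of all genes called higher and 4.88% called lower in the pooled comparison. Of 15 tested genes for amino acid transport and the amino acid stress response, 9 were higher and 1 lower in IgM (Ddit4), with a median log2 fold change of 0.71. Slc3a2, the shared chain of the large amino acid transporters, was at 1561 and 2201 CPM in IgM cells of bone marrow, 1997 and 2709 in spleen, with 1063 and 2081 in thymus. The other kept cells held 632, 820, 735, 1035, 474 and 741 CPM, below every IgM library, and the log2 fold change was 1.39 ± 0.12 (2.62-fold, adjusted p = 1.19e-10). Its partner Slc7a5 rose by 0.73 on the log2 scale, the asparagine synthetase gene Asns by 0.95, the mitochondrial folate enzyme gene Mthfd2 by 0.90 and the stress-induced glutathione-degrading enzyme gene Chac1 by 1.199. The called members were Slc7a5, Slc3a2, Asns, Psat1, Phgdh, Shmt2, Mthfd2, Sesn1 and Chac1. Against IgA alone 1 member was called higher (all genes 1.73%), and against IgG alone 9 (all genes 4.05%). Asns differed by 0.06 against IgA (adjusted p = 0.945) and by 1.69 against IgG.

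Of 19 tested homing and adhesion genes, 9 were lower and 1 higher (Itgav), with a median of -0.40 (all genes 4.88% lower, 5.55% higher). Besides those given, S1pr4, Selplg, Itga4 (log2 -0.75 ± 0.10), Itgb2 and Klf2 were lower. Klf2, a factor of lymphocyte trafficking, was 1.501 lower against all other kept cells, 1.94 lower against IgA and 0.58 higher against IgG (adjusted p = 0.598).

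Antibody secretion genes were mixed. Of 37 tested genes of protein folding in the endoplasmic reticulum (ER), 8 were lower in IgM (Hsp90b1, Dnajb9, Edem1, Edem2, Ssr2, Ssr4, Ppib and Fkbp11) and 3 higher (Herpud1, Ddit3 and Chac1), with a median of -0.18 (all genes 4.88% lower, 5.55% higher). Hsp90b1, an ER chaperone gene, was called in 11 of 21 alternatives and did not pass when any library other than female thymus was left out, and against IgA alone it differed by -0.11 (adjusted p = 0.802). The collagen and antibody folding gene Fkbp11 was at 128 to 669 CPM in IgM and 321 to 823 in other cells, lower in 6 of 6 libraries (log2 -0.55 ± 0.11, adjusted p = 0.000455). Against IgA alone 5 members were higher and 2 lower (all genes 1.73% and 1.02%), and against IgG alone 3 were higher and 17 lower (all genes 4.05% and 4.65%). Of 14 genes of IgM assembly, Txndc5 and Fcmr were higher and Erp44, Ero1l, Prdx4 and Lman1 lower, with a median of -0.17. Fcmr, the Fc receptor for IgM, differed by 2.44 against IgA alone and 0.07 against IgG alone (adjusted p = 0.917). Erp44 retains unassembled IgM subunits in the cell, and it was at 202 to 443 CPM in IgM and 244 to 599 in other cells (log2 -0.38 ± 0.10).

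Txndc5, an ER disulfide isomerase, was at 6192 and 7313 CPM in IgM cells of bone marrow, and all 6 IgM libraries lay above the 6 libraries of other cells. The log2 fold change was 0.78 ± 0.15 (adjusted p = 0.00031), 0.19 against IgA and 1.72 against IgG. Of 22 genes of N-linked glycosylation 2 were higher and 4 lower, with a median of -0.08 (all genes 5.55% higher, 4.88% lower). Stt3b, a catalytic subunit of the enzyme that attaches N-glycans, rose by 0.99 ± 0.13 on the log2 scale (adjusted p = 8.18e-07, higher in 5 of 6 libraries).

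The genes that define the cell type did not pass. Jchain differed by 0.15 ± 0.26 on the log2 scale (adjusted p = 0.824), Sdc1 by -0.11 ± 0.10 (adjusted p = 0.585) and Prdm1 by 0.22 ± 0.12 (adjusted p = 0.24). Xbp1 was lower in IgM in 6 of 6 libraries without passing (log2 -0.43 ± 0.15, adjusted p = 0.0511). Of 24 genes for plasma cell transcription factors, Pou2af1, a B cell coactivator, and Zeb2 were higher and Creb3l2, Ell2, Klf2 and Runx2 lower (all genes 5.55% higher, 4.88% lower). Zeb2 was called in 12 of 18 alternatives and did not pass when female bone marrow or either spleen library was left out.

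Antigen presentation genes depended on the class compared. Of 7 MHC class II genes 3 were lower in IgM. H2-Eb1 was at 383 to 797 CPM in IgM and 563 to 1081 in other cells, lower in 6 of 6 libraries (log2 -0.59 ± 0.11), but 0.93 higher against IgA alone and 0.92 lower against IgG alone. H2-Ab1 and H2-Aa likewise were 0.54 and 1.11 higher against IgA alone. Against IgA, 6 class II genes were called higher and none lower, and against IgG none higher and 4 lower (all genes 1.73% higher against IgA, 4.65% lower against IgG). Of 15 MHC class I genes none was called in the pooled comparison, 7 were higher against IgA and 3 lower against IgG.

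Of 8 genes of immune regulation, Lag3, Pdcd1lg2, Tgfb1 and Ebi3 were higher and Fgl2 lower (all genes 5.55% and 4.88%). Pdcd1lg2, which encodes the PD-1 ligand PD-L2, was at 21.8 to 49.1 CPM in IgM and 0 to 21.7 in other cells (log2 1.56 ± 0.23, adjusted p = 3.96e-06), with 0.49 against IgA alone (adjusted p = 0.631) and 2.03 against IgG alone. Tgfb1, a class-switch cytokine gene, differed by 0.65 ± 0.13 and Ebi3, a subunit of interleukins 27 and 35, by 0.57 ± 0.15, each higher in 6 of 6 libraries. Tgfb1 did not pass against IgA alone (0.29, adjusted p = 0.739) or IgG alone (0.72, adjusted p = 0.066). Fgl2, a secreted fibrinogen-like protein gene, was at 25.2 to 55.0 CPM in IgM and 62.2 to 120 in other cells, with no overlap (log2 -1.27 ± 0.13), but 0.76 higher against IgA alone.

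B-1 cell markers were then counted. Of 11 tested, none was called higher and 4 lower (Spn, Siglecg, Atxn1 and Anxa2), with a median of -0.12 (all genes 4.88% lower). Spn, which encodes CD43, was at 36.4 to 66.7 CPM in IgM and 61.9 to 130 in other cells, lower in 6 of 6 libraries (log2 -0.75 ± 0.12). Against IgA alone Spn differed by -0.09 (adjusted p = 0.942), Siglecg by 0.07 (adjusted p = 0.98) and Anxa2 by 0.54 (adjusted p = 0.807), so these calls did not hold there. Atxn1 was 0.53 higher against IgG alone and lost its call in 13 of 21 alternatives. Of 12 genes of the TGF-beta response and IgA, 5 were lower, of which Runx2, Ccr9, Ccr10 and Itgb7 are given above and the fifth was Tgfbr1 (all genes 4.88% lower). Of 36 interferon genes 3 were higher (Slfn8, Ifi213 and Ly6e) and 1 lower (Bst2), and over all genes 5.55% were higher and 4.88% lower, so these counts differ little from the background. Ifi213 was called in 6 of 20 alternatives and Slfn8 in 12 of 20, and neither with DESeq2 or against IgG alone. In the pooled comparison none of 6 Toll-like receptor genes was called, and 2 of 24 oxidative phosphorylation genes were lower.

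**Figure D4:**
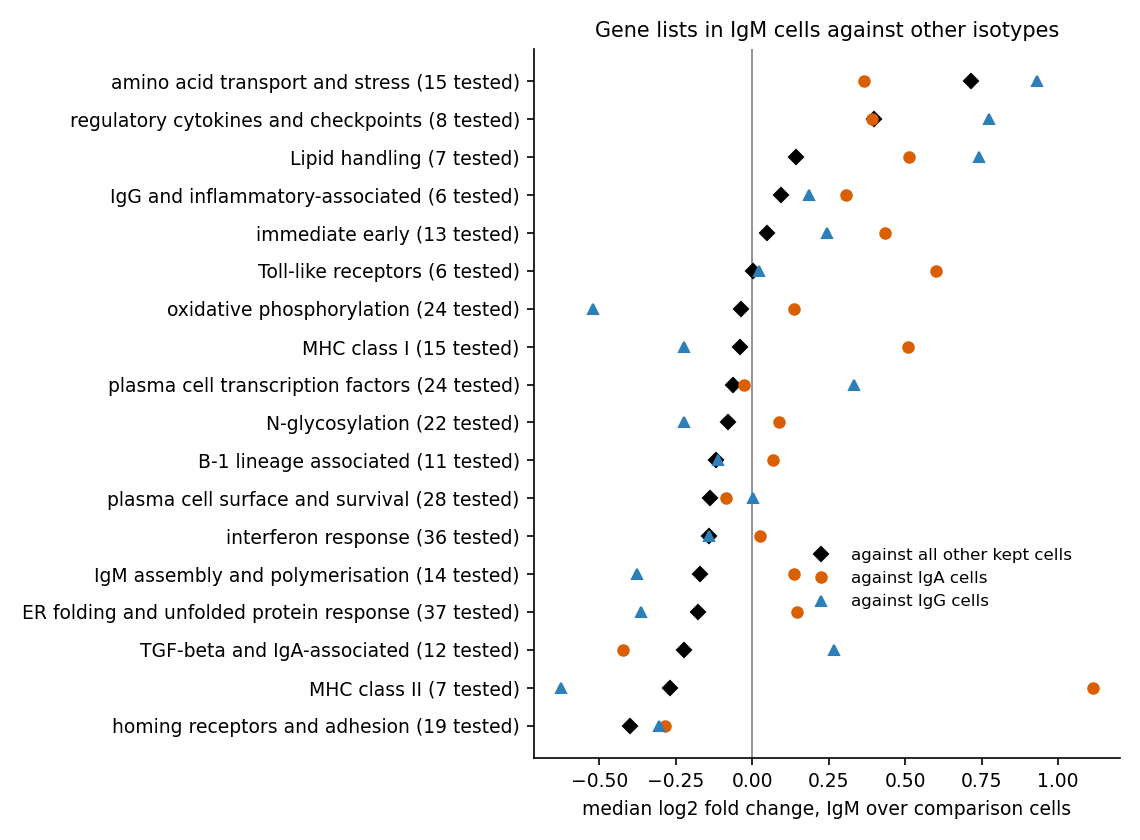
Median fitted log2 fold change of each gene list in IgM cells against all other kept cells (diamonds), IgA cells alone (circles) and IgG cells alone (triangles), which share the IgM cells. Against all other kept cells amino acid genes have the highest median (0.71) and homing genes the lowest (-0.40), and MHC class II genes lie on opposite sides of 0 against IgA and IgG.

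The count of 774 fell to 397 without female spleen and to 76 in cells that held no marker of another cell type. This last subset kept 128 of 664 (female) and 141 of 987 (male) IgM cells of bone marrow and 215 of 1295 and 191 of 891 of spleen. In thymus it kept 22 of 44 and 49 of 158. The loss of cells and depth was not told apart from the removal of marker-holding cells. With DESeq2 451 genes were called, of which 438 were among the 774.

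The difference between IgM and other kept cells depended on tissue in 8 of 7418 genes (0.108%, edgeR's quasi-likelihood interaction test). On simulated data, with a change in IgM cells of thymus, this test called 4 of 100 genes changed by 1 on the log2 scale. It called 47 of 100 changed by 2, so genes not called cannot be taken as alike across tissues. Atp1b1 was at 29.4 and 12.98 CPM in IgM cells of bone marrow, 93.9 and 50.004 in spleen, with 128 and 79.3 in thymus, and at 113 to 295 in the other kept cells (adjusted p = 1.14e-05). The IgM level was lowest in both bone marrow libraries. Isg15, an interferon-induced ubiquitin-like gene, was higher in IgM cells of bone marrow (66.4 and 73.4 against 21.4 and 21.7 CPM) while in thymus the sexes went opposite ways, with 183 against 133 CPM in the female and 130 against 617 in the male library (adjusted p = 0.000136). Slpi, a secreted protease inhibitor gene, was lower in IgM cells of spleen, at 3148 and 1759 CPM against 15094 and 14954 in other cells (adjusted p = 0.000958). Bone marrow was split for Slpi (2751 against 4738 CPM in the female, 4526 against 4305 in the male), and female thymus went the other way (1961 against 637), with 1841 against 1975 in male thymus. Ebf1 was lower in IgM cells of bone marrow (13.9 and 7.02 against 94.0 and 55.7 CPM) and close to other cells in spleen (37.4 and 32.8 against 36.4 and 35.6, adjusted p = 0.000136). In thymus it was lower in IgM cells too, at 0 against 14.8 CPM in the female and 7.21 against 20.7 in the male library, on few UMIs. Leaving out male thymus gave 151 such genes in place of 8.

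Within IgM cells, tissues were compared with 2 libraries each, and 70 of 10072 genes differed between thymus and bone marrow (0.695%), 52 higher in thymus (0.516%) and 18 lower (0.179%). Between thymus and spleen 58 differed (0.576%), 44 higher (0.437%) and 14 lower (0.139%), and between spleen and bone marrow 43 (0.427%), 21 higher in spleen (0.208%) and 22 lower (0.218%). The same edgeR test was used on all 6 libraries with tissue and sex as additive terms, which leaves 2 residual degrees of freedom. The contrasts share libraries. Whether 1 pool of mice gave all tissues of a sex is not in the labels, so the tests measure the spread between these pools after a sex effect shared by the tissues. With library totals in place of TMM scaling the median of all genes moved by 0.23 (thymus over bone marrow) and 0.22 (thymus over spleen), and the split became 67 higher and 11 lower, and 70 and 7.

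Interferon-induced genes were higher in thymic IgM cells. Of 42 tested, 17 were higher than in bone marrow and none lower, with a median log2 difference of 1.35 (all genes -0.03), and 11 were higher than in spleen (median 1.002, all genes -0.06). Over all genes 0.516% were called higher in thymus than in bone marrow and 0.437% higher than in spleen. The share called higher in spleen than in bone marrow was 0.208%. Between spleen and bone marrow 1 was called higher, Ifi27l2a (adjusted p = 0.0436), and that call held in 8 of 18 alternatives, not with DESeq2 or without female spleen. Type I interferons switch on antiviral genes through a receptor on the cell surface, and the transcription factor encoded by Irf7 amplifies interferon production.

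Irf7 was at 24.2 and 20.8 CPM in bone marrow, 45.4 and 19.7 in spleen, with 108 and 148 in thymus. Both thymus libraries lay above the other 4. The log2 difference from bone marrow was 2.68 ± 0.34 (6.39-fold, adjusted p = 7.67e-12).

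Among the induced genes, Ifi27l2a was at 188 and 91.7 CPM in bone marrow, 861 and 208 in spleen, with 1683 and 1888 in thymus (log2 3.88 ± 0.52 over bone marrow). Spleen lay between the others, and the female spleen library lay far above the male. Ifi206, a DNA sensor family gene, was at 7.93 and 3.75 CPM, 4.07 and 2.39, and 133 and 83.8 (log2 4.29 ± 0.42 over bone marrow, 19.5-fold). Usp18, which removes ISG15 from proteins, was at 2.50 and 1.46 CPM, 8.76 and 2.99, and 66.6 and 45.4 (log2 4.89 ± 0.56, 29.7-fold). These thymic values rest on few molecules: 16 and 48 UMIs for Ifi206 and 8 and 26 for Usp18 in female and male thymus. Trim30a rose by 2.38 and Ifi213 by 2.23 on the log2 scale over bone marrow. Ifi206 and Ifi213 belong to a family of near-identical neighbours on chromosome 1, so reads may have been split between them.

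Outside the list, Tlr7, the receptor for single-stranded RNA, was at 17.1 and 9.80 CPM in bone marrow, 26.7 and 21.2 in spleen, with 117 and 78.6 in thymus (log2 2.88 ± 0.38 over bone marrow). Ly6c2, a surface antigen that interferon also raises, was at 632 and 616, 2174 and 449, and 5290 and 4795 CPM (log2 3.00 ± 0.61 over bone marrow, adjusted p = 0.000344). Ly6c2 did not pass when either bone marrow library or male thymus was left out, with log2 differences of 2.51, 3.69 and 2.37, and Tlr7 did not pass in cells with no marker of another type (adjusted p = 0.118).

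Free RNA of the same libraries moved with these genes. The interferon list summed to 6152 and 6025 CPM in IgM cells of bone marrow, 7303 and 5655 in spleen, with 10098 and 9756 in thymus. Free RNA held 2857 and 3903, 5866 and 4412, and 7909 and 9033 CPM, and the other kept cells of thymus 9828 and 10690. Its part in the result was not tested. After subtraction of free RNA 13 list genes were called higher than in bone marrow (0.499% of all genes called, 0.377% higher). In cells with no marker of another cell type 4 were (median 1.21, all genes 0.0779%), but this subset kept only 22 of 44 and 49 of 158 thymic IgM cells.

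**Figure D5:**
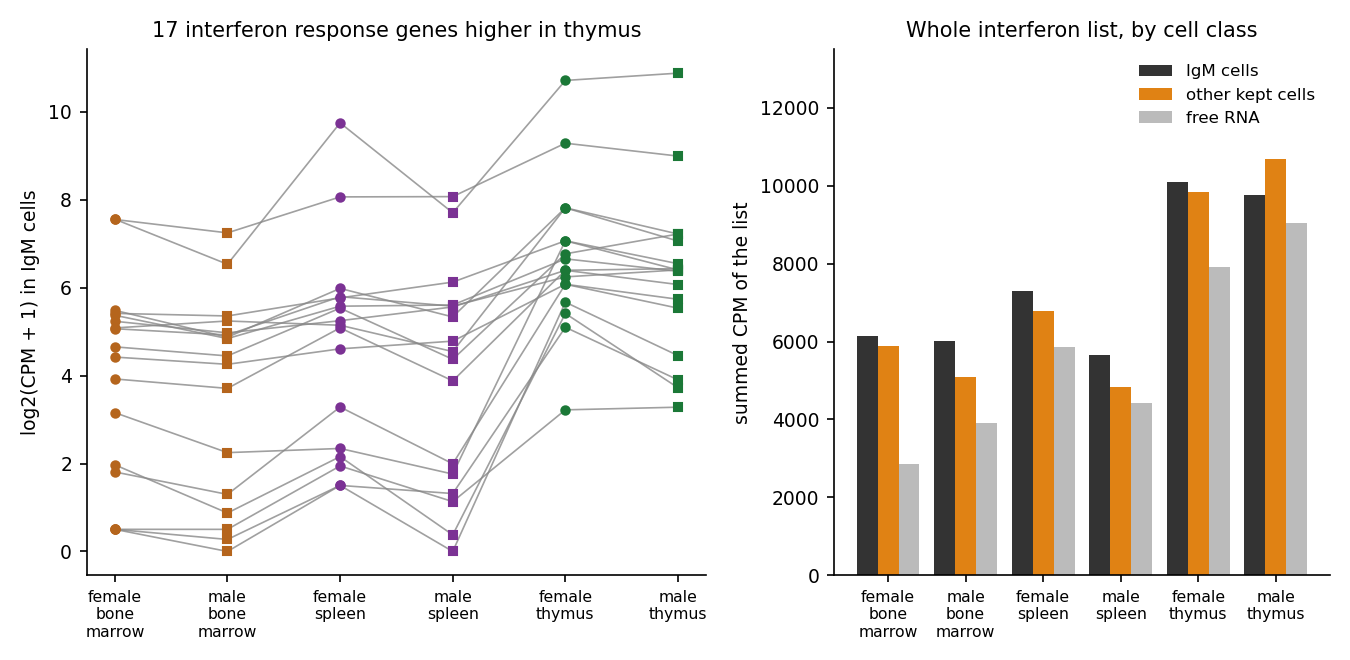
Left, log2(CPM + 1) in IgM cells of each library for the 17 interferon genes called higher in thymus than in bone marrow, with a line for each gene. Right, summed CPM of the whole list in IgM cells, other kept cells and free RNA of each library, where all 3 are highest in the thymus libraries.

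Promoter windows were searched for the core of the interferon-stimulated response element, which is GAAA, any 2 bases and GAAA again, on both strands. A window ran from 250 bases before to 50 after a start site in RefSeq (GRCm38.p6), and 1131 of 32851 windows (3.44%) held it. Windows were found for 11 of the 17 genes higher in thymus, too few to read a share, and 6 of these held the motif: Eif2ak2, Ifi206, Ifi213, Oas1a, Stat2 and Trim30a. Of the 25 interferon genes tested and not higher, 21 had a window and 14 of these held it (66.7%). Oas1a held 2 overlapping matches, and a second window of Trim30a held 1. The 2 windows below are printed as examples of the match on either strand, chosen after the values were seen, with capitals marking the match, which lies 40 bases before the start of Ifi206 and 36 before that of Trim30a, there on the opposite strand. A match is a description of the sequence only.
Ifi206, chr1:173491269-173491568, minus strand: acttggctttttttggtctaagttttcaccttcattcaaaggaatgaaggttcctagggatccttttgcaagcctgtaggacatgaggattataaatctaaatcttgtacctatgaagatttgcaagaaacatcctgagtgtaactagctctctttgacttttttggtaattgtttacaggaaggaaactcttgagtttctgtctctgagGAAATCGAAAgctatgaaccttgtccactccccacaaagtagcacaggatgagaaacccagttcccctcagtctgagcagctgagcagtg
Trim30a, chr7:104465144-104465443, minus strand: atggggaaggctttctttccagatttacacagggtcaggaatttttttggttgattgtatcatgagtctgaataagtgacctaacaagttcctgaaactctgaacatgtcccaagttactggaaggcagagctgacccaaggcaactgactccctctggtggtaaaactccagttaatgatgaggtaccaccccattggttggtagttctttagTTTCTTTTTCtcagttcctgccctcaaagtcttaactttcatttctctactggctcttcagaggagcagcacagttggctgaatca

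Of 16 tested immediate early genes, 3 were lower in thymic than in bone marrow IgM cells and none was higher (all genes 0.179% lower, 0.516% higher). Fos, a transcription factor gene switched on within minutes of stimulation, was at 595 and 105 CPM in bone marrow, 442 and 118 in spleen, with 49.99 and 57.6 in thymus (log2 -1.87 ± 0.43 against bone marrow, adjusted p = 0.00325). The female libraries of bone marrow and spleen were the 2 highest. Egr1 differed by -2.43 ± 0.59 and Fosb by -2.15 ± 0.51. None of these 3 calls held with DESeq2, without female bone marrow, without female thymus, in cells with no marker of another type or in cells with at least 10% ribosomal UMIs. Of 24 oxidative phosphorylation genes none passed between thymus and bone marrow in the main fit (median -0.86). Without barcodes found in another library's list 9 were called lower in thymus than in bone marrow (median -1.35), among 164 genes called. Against spleen 12 were lower there (median -1.46), among 136 called. None of 39 ER folding genes passed in any of the 3 contrasts of the main fit. For spleen against bone marrow this did not hold in cells with at least 10% ribosomal UMIs.

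Of 9 tested lipid handling genes, 2 were higher in spleen than in bone marrow, Cd36 and Apoe, and none lower (median 0.25, all genes 0.03, with 0.208% of all genes called higher and 0.218% lower). The list was chosen with earlier results of these data known, so this count is a description and no independent support. Cd36, a fatty acid and lipoprotein receptor gene, was at 7.93 and 3.75 CPM in bone marrow, 32.2 and 19.4 in spleen, with 8.33 and 3.49 in thymus (log2 2.18 ± 0.35 for spleen over bone marrow, 4.53-fold, adjusted p = 9.5e-07). Apoe, the lipid carrier apolipoprotein E, was at 77.6 and 42.3, 386 and 130, and 16.7 and 52.4 CPM (log2 2.004 ± 0.32). Spleen was highest for both. No gene of the list was called higher in spleen with DESeq2 or with sums thinned to the smallest. In cells with no marker of another type 1 was called, and after free RNA was subtracted 2 were. Ebf1 and Atp1b1 were 3.58-fold and 3.53-fold higher in spleen. Parm1, a mucin-like membrane gene, was at 52.2 and 33.4 CPM in bone marrow against 9.17 and 12.2 in spleen (log2 -1.98 ± 0.31), and the forkhead factor gene Foxp2 at 22.1 and 25.02 against 4.28 and 8.06 (log2 -1.96 ± 0.35). Macrophages also express Apoe and Cd36, and macrophage markers summed to 122 and 51.7 CPM in IgM cells of bone marrow and 66.4 and 64.4 in spleen. Gene by gene, the 7 macrophage markers tested had a median log2 difference of 0.99 for spleen over bone marrow. Of these Mrc1 was called higher in spleen and Lyz2 lower. The part of macrophage RNA in these results was not tested.

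Neutrophil granule genes were also called lower in spleen. S100a8 was at least 79.3-fold, Ngp at least 64.5-fold and Camp at least 39.3-fold higher in bone marrow, against a floor of 3 UMIs over both spleen libraries. The neutrophil list summed to 98.2 and 98.0 CPM in IgM cells of bone marrow, and to 1199 and 1715 in free RNA there, against 0.158 and 0.307 in IgM cells of spleen and 0 in those of thymus. Of the 4 neutrophil genes called lower in spleen, 1 was called with DESeq2. After free RNA was subtracted none was left to test. The part of free RNA in these folds was not tested.

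The tissue counts moved with single libraries. Thymus against bone marrow ranged from 14 genes without male bone marrow to 204 without female spleen, thymus against spleen from 21 without male thymus to 549 without male spleen, and spleen against bone marrow from 3 without female bone marrow to 68 without female thymus. On simulated data the test recovered 77 of 100 genes changed by 2 on the log2 scale between thymus and bone marrow and 11 of 100 changed by 1. Between thymus and spleen it recovered 77 and 10, and between spleen and bone marrow 99 and 34. Changes of 1 were thus mostly not detectable with this depth and 2 libraries a tissue, which were not told apart.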

How the data were processed

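Gene expression was read from the filtered tables that the authors deposited, which hold UMI counts per gene and barcode, made with Cell Ranger 6.0.2 per the file headers. The submitters' processing notes list mm10 and GRCm38. The VDJ tables deposited by the authors hold UMI counts per contig and calls of V, J and constant genes. The members, gene lists and tests were chosen with earlier results of these data known.

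The tables held 32285 genes. Counts were summed per library and class (at least 20 cells a sum) after 395 immunoglobulin, 13 mitochondrial and the 6 cell cycle genes were left out, and tested with edgeR 4.0.16 in R 4.3.3 (TMM, quasi-likelihood F-test, filterByExpr, Benjamini-Hochberg at 0.05). The IgM against other fit held 12 sums with the library as a block. The tissue fit held 6 sums with sex and tissue as terms. Named genes were the 12 with the largest called change in each direction (6 per tissue contrast) that had at least 20 CPM and changed the same way in every library, up to 6 tissue-dependent genes, up to 4 members of each list (those called with the largest change), Jchain, Xbp1, Sdc1 and Prdm1, and the 5 commonest V genes and clones. Other list members named were chosen after their values were seen. DESeq2 1.42.0, other scalings, filters, thinning, subsets of cells and each library left out were alternatives. Repertoire shares were compared over libraries by exact sign flips (64), and simulated data with known changes were run through each fit. Doublets were treated by the light-chain rule, with no caller. Free RNA was the sum of barcodes outside every filtered list with at least 100 UMIs, a definition set after seeing the data. PCR and droplet losses mean that intervals cover counting error only. Scripts ran in Python 3.11.15 with numpy 2.4.6, pandas 2.3.3 and scipy 1.17.1. The result of 1 gene is not reported here.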

Additional observations from a re-analysis of the deposited data

Results flagged for a closer look

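In 8 genes the difference between IgM and other kept cells depended on tissue by edgeR's interaction test. The adjusted p was 1.14e-05 for Atp1b1, 0.000136 for Isg15, 0.000136 for Ebf1, 0.000244 for Ly6k, 0.000958 for Slpi, 0.0190 for Mt1, 0.0459 for Gm42047 and 0.0459 for Ltb. In 3 measures over the IgM cells of 6 libraries 1 library stood far from the others by Dixon's test. Lambda light chains reached 21.2% of cells with a light chain in female spleen, where the VDJ library covered 261 of 1295 IgM cells. In the expression data 103 of all 1295 IgM cells of that library were led by a lambda gene (7.95%). The largest clone took 32.2% and IGHV9-3 34.9% of the IgM cells of male spleen, which are largely the same cells. Of the 15 measures tested this way chance alone flags about 1 in 20.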

How the results depend on the processing

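Thymus depth and 2 libraries a tissue limit the tissue contrasts. Leaving out a library leaves 1 in its tissue, which is then assumed to vary like the others. For IgM against other cells, 2 of the subsets also lost libraries whose other class held fewer than 20 cells. These were the cells with no marker of another type and those with at least 10% ribosomal UMIs. The first subset kept 22 to 215 IgM cells a library, against 44 to 1295 in the main fit. For IgM against other cells (774 genes), DESeq2 called 451, sums thinned to the smallest 31, cells with no marker of another type 76, cells with at least 10% ribosomal UMIs 275, IgA cells alone 248 and the fit without the library block 289; single libraries left out gave 397 to 1118. For tissue dependence (8), DESeq2 called 2, library totals 14, every gene with a UMI 20, thinning 1 and cells above a higher UMI minimum 34, with 11 to 151 over libraries left out; cells without another type's marker or with high ribosomal share gave no value. Thymus against bone marrow (70) gave 35 with DESeq2, 14 thinned and 5 without marker-holding cells, with 14 to 204 over libraries left out. Thymus against spleen (58) gave 27, 8 and 1, 36 with free RNA subtracted, and 21 to 549. Spleen against bone marrow (43) gave 2, 0 and 1, 25 with library totals, 277 at high ribosomal share, 19 with free RNA subtracted, and 3 to 68. Chosen after seeing the data, leaving out the Igkv5-39 cells of male spleen gave 17 tissue-dependent genes, and leaving out barcodes of another library's list gave 97, with 164 for thymus against bone marrow and 136 for thymus against spleen. The lambda difference (-0.03 points) became 1.45 with 1 cell per clone, 0.0798 by VDJ constant gene and 0.37 without the Igkv5-39 cells, and ran from -0.94 to 1.32 over libraries left out. Over libraries left out, CDR3 length ran from -2.27 to -1.14 bases, IGHV1 from -8.78 to -3.99 points, clones of 2 or more cells from 2.99 to 12.4, clones in another tissue from 7.45 to 17.3, clones in the other sex from 3.68 to 5.83, V segments with no mismatch from 15.1 to 17.8 and mismatches from -1.79 to -1.25. Against IgA alone the log2 difference reversed to 1.14 for Bcl2l1, 0.19 for Ly6c2, 0.65 for Cxcr3, 0.0678 for Siglecg, 0.54 for Anxa2, 0.10 for Fut8, 0.54 for H2-Ab1, 0.93 for H2-Eb1, 1.11 for H2-Aa, 0.51 for B2m and 0.76 for Fgl2. Against IgG alone it reversed to 0.58 for Klf2, 0.53 for Atxn1 and 0.61 for Atp1b1. Atxn1 was 0.25 at high ribosomal share, Ifi213 -0.0164 without marker-holding cells and Apoe -0.0385 without female spleen and 1.80 without male spleen. The fits against IgA alone and IgG alone also held fewer libraries, so the class compared and the libraries changed together. The cause of these reversals was not tested.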
